A study of Mus musculus with 12 samples.

Results

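The genes described here are 48 genes of the Wnt pathway, grouped by role: 12 ligands, 15 receptors and co-receptors, 9 secreted antagonists, 3 R-spondins, 5 nuclear effectors and 4 feedback genes or intracellular inhibitors. They were chosen by symbol, and their probes were found through the RefSeq accession that each array spot carries. Of the 48 genes, 47 had a probe and 34 could be tested, among 12300 genes tested in all and 17178 genes with a named probe. The 12 single-colour arrays held RNA from C3H/10T1/2, fibroblasts of mouse embryo origin that MyoD, a myogenic transcription factor of the basic helix-loop-helix class, can convert to skeletal muscle. All groups carried a stable hairpin: 3 arrays each were from shLuc cells (the control hairpin) with the empty retrovirus pBABE, shLuc cells with pBABE carrying tagged MyoD, shSix4 cells (Six4, a homeobox protein, is the hairpin's target) with the empty virus, and shSix4 cells with MyoD. Every group spent 24 h in medium with 2% horse serum, begun 24 h after infection. A description field in the labels names another cell line and other stages, disagrees with the remaining fields and was set aside. Whether a line is a clone or a pool, what share of cells took up the virus and whether replicates are separate cultures is not given in the labels. The p-values therefore measure the spread of these arrays only, which may be technical.

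Wnt proteins are lipid-modified secreted ligands that bind Frizzled receptors together with the co-receptors Lrp5 and Lrp6, or with Ror and Ryk receptors. In the canonical branch this spares beta-catenin (Ctnnb1) from destruction, so that it enters the nucleus and acts with Tcf and Lef factors on target genes, among them the feedback inhibitors Axin2 and Nkd1. Secreted frizzled-related proteins, Wif1 and Dickkopf proteins oppose the ligands outside the cell, R-spondins prolong receptor signalling, and in muscle the pathway is known for its part in the specification of myogenic cells in the embryo and in repair by satellite cells.

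Levels are log2 of the processed signal minus the 75th percentile of that array, so 0 is the brightness of a probe at that percentile. They compare a gene between arrays and not one gene with another, since probes differ in their response. A change passed the test at a Benjamini-Hochberg adjusted p under 0.05 over all 12300 genes (limma, a mean per group over 12 arrays); errors of changes are limma standard errors (SE). The replicate number of an array is also its slide: each of the 3 slides held 1 array of every group, and position on the slide went with the group, so position and group cannot be told apart. Arrays of a slide moved together, and 21 of the 34 tested genes read lowest on slide 1 in all 4 groups, so each count is also given from a fit with the slide as a block. Each ± value is the SE of the fit without the block, also where a p-value with the block stands beside it. For Nkd1 with MyoD in shLuc cells, for example, the SE was 0.65 without and 0.31 with the block. In bulk RNA, fewer cells of a type and less RNA per cell cannot be told apart.

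The labels were checked on their own genes first. The log2 difference of Six4 between the hairpins, shSix4 minus shLuc, was -1.17 ± 0.49 with MyoD (adjusted p = 0.558, 0.0424 with the block) and -0.92 ± 0.49 with empty vector (0.999, 0.168 with the block), so the knockdown at the RNA level passed the test only with MyoD and the block. Myod1 was 4.03 ± 0.90 with the MyoD virus in shLuc (adjusted p = 0.0315) and 2.10 ± 0.90 in shSix4 cells (0.482); these fits lack the 2 empty-vector arrays of slide 3, whose spot carried an outlier mark. Of 12 skeletal muscle markers, 11 rose with MyoD in each line (12 with the block) and 0 fell, and their summed level (on the same log2 scale) went from a range of 4.60 to 5.47 to one of 9.24 to 9.88 in shLuc cells. In shSix4 cells it was 3.47 to 5.79 without and 7.75 to 8.61 with MyoD. All 10 fibroblast markers were measured in every group, and their summed level was 10.13 to 10.85 and 9.85 to 10.30 in shLuc cells without and with MyoD. In shSix4 cells it was 10.01 to 10.48 and 9.80 to 10.41. None of the 10 passed without the block, and 4 fell with MyoD in shLuc cells with it (Lum, Pdgfra, Pdgfrb and Thy1) and 0 in shSix4 cells. The leukocyte marker Ptprc, the endothelial marker Pecam1, the epithelial marker Epcam and the adipocyte marker Adipoq were not well above background on all arrays of any group. Among the lists of other cell types, 1 gene each of the endothelial (Vwf), osteoblast (Dmp1) and chondrocyte (Ucma) lists rose with MyoD in both lines, and 0 genes of these lists fell without the block. With the block, 3 of 5 chondrocyte markers fell in shLuc cells (Comp, Sox9 and Col2a1), as did the osteoblast marker Runx2. In both lines the endothelial marker Tek and the adipocyte marker Pparg fell and the epithelial marker Krt18 rose. The probes used for Chrna1, Ckm, Des, Myh3, Myog, Vwf and Krt18 were well above background on all arrays of a group only with MyoD. These genes came to be tested that way, so their rise is in part set by that filter. Only 4 of 6 osteoblast and 2 of 6 adipocyte markers (Pparg and Fabp4) could be tested, and the sums hold these alone. The summed osteoblast level was -2.13 to -1.63 without and -1.51 to -1.07 with MyoD in shLuc cells. In shSix4 cells it was -2.04 to -1.60 without and -0.82 to -0.20 with it. The summed adipocyte level, with Pparg the larger signal, was 2.52 to 2.79 without and 1.56 to 1.75 with MyoD in shLuc cells. In shSix4 cells it was 2.55 to 2.95 and 1.86 to 2.35. Their part in the changes below was not tested.

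In shLuc cells, MyoD changed 3 of the 34 tested genes without the block. The ligand Wnt5b fell, and the ligand Wnt9a and the feedback gene Axin2 rose. Of all genes, 6.28% passed the test in this comparison, 4.72% higher and 1.56% lower, against 5.88% and 2.94% of these genes, so the share called is near that of the whole array. When the slide entered as a block, 16 passed (25.6% of all genes did), 6 higher (17.6%, where 9.89% of all genes did) and 10 lower (29.4%, where 15.7% did). The 16 added Fzd3, Fzd10, Lrp5 and Nkd1 to the higher genes and Wnt2, Fzd1, Ryk, Sfrp1, Frzb, Dkk3, Rspo2, Tcf7l1 and Tcf7l2 to the lower ones. Over the 34 genes the median log2 change was -0.36, beside -0.14 over all genes, and 25 of them were negative. The groups did not overlap for 7 lower genes (15.9% of all genes) and 5 higher ones (10.2%). At an unadjusted p under 0.05 stood 10 of the 34, beside 19.3% of all genes.

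In shSix4 cells, Wnt5b was the 1 gene of the 34 past the threshold without the block, where 2.89% of all genes were called (2.79% higher and 0.106% lower). Under the block 6 passed (8.29% of all genes did): Axin2 and Wnt9a rose, and Wnt5b, Rspo2, Dkk3 and Frzb fell. That is 5.88% higher and 11.8% lower, against 5.69% and 2.6% of all genes. The median change was -0.37 over these genes and -0.058 over all genes, with 24 of 34 negative. The groups did not overlap for Wnt5b and Fzd2 among the lower genes (7.38% of all genes) and for Axin2, Wnt9a and Lrp5 among the higher ones (7.15%). At an unadjusted p under 0.05 stood 5, beside 9.77% of all genes.

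**Figure D1:**
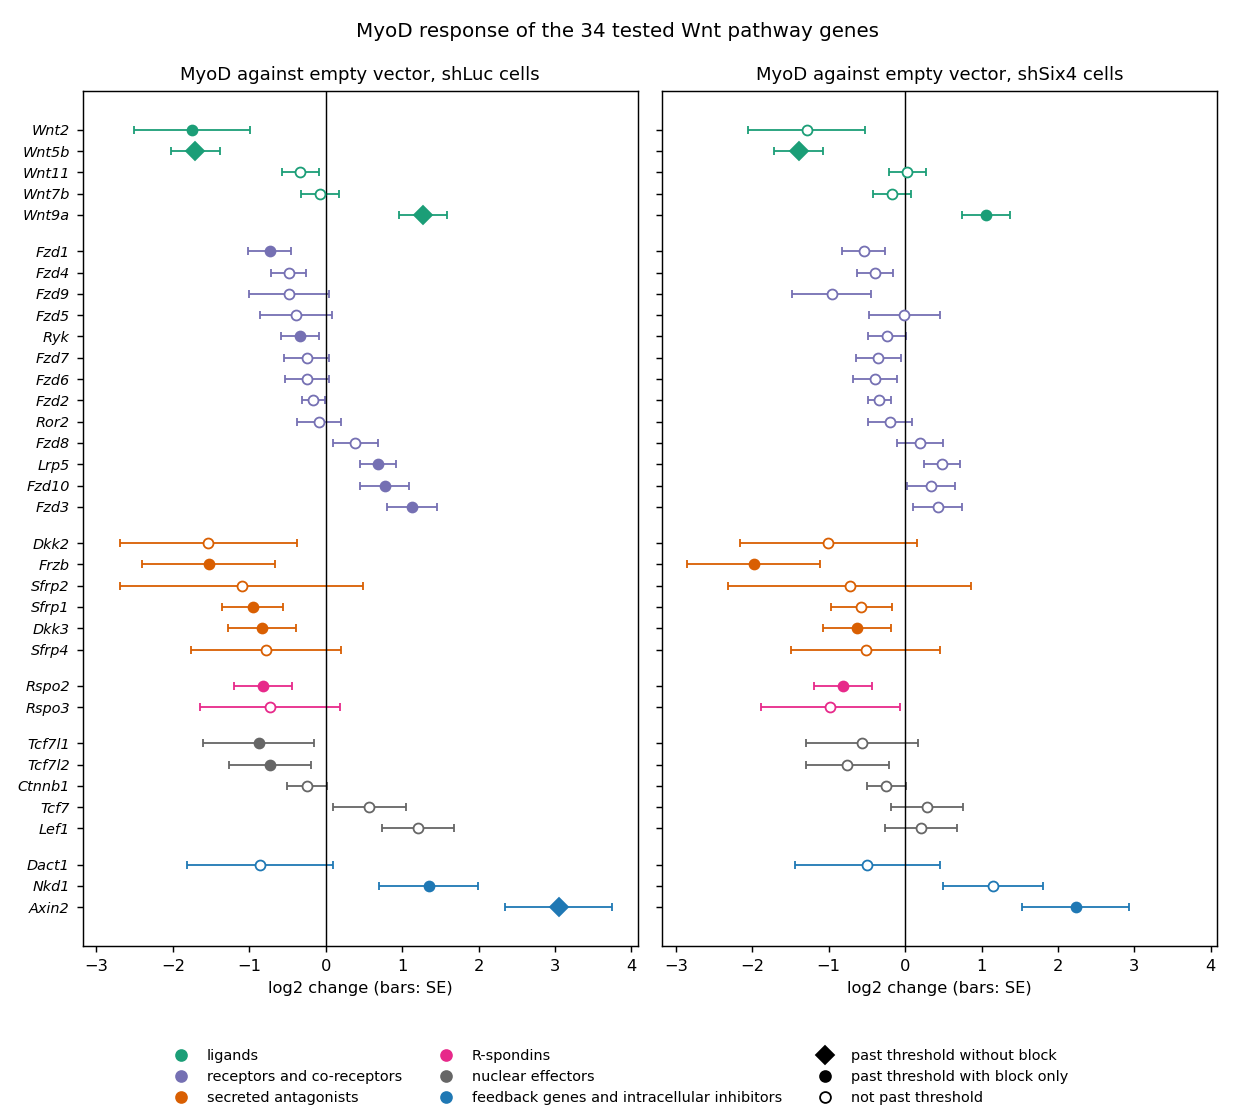
Log2 change with MyoD against empty vector (x axis, bars are SE of the fit without the block, 3 arrays a group) of the 34 tested genes (y axis) in shLuc cells (left) and shSix4 cells (right), coloured by role. Diamonds passed the threshold without the block, filled circles only with it and open circles in neither; all 6 secreted antagonists lie left of 0 in both lines, while Wnt9a and Axin2 lie right of it.

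Among the ligands, 5 of 12 could be tested, with a median change of -0.34 in shLuc and -0.17 in shSix4 cells. In shLuc cells 1 rose and 1 fell (1 and 2 with the block). Under shSix4, 0 rose and 1 fell (1 and 1 with the block). Wnt5b, a ligand best known for the branches that do not act through beta-catenin, read 2.69, 2.14 and 1.72 on slides 1 to 3 of the shLuc line without MyoD and 0.46, 0.63 and 0.35 with it. The groups lay far apart, with every MyoD array below every empty-vector array. Its change was -1.70 ± 0.32 (adjusted p = 0.00812, 0.00411 with the block), lower on 3 of 3 slides, and it passed the test in each of the 12 fits that left out 1 array. The shSix4 line read 2.48, 1.83 and 1.71 with empty vector and 0.06, 1.11 and 0.67 with MyoD, again with no overlap. The change there was -1.39 ± 0.32 (adjusted p = 0.0446, 0.0222 with the block). That call was kept without shLuc empty-vector array 1 or 3 or shSix4 MyoD array 2 and lost in the other 9 of 12 fits without 1 array, with adjusted p up to 0.173 without the MyoD array of slide 1. The other probe for Wnt5b gave changes of -1.47 and -1.36 in shLuc and shSix4 cells.

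Wnt9a, a ligand with known roles in joint and limb development, moved the other way. It read -0.76, -0.94 and -0.76 without and 0.96, 0.15 and 0.25 with MyoD in shLuc cells, and -1.11, -0.71 and -0.40 without and 0.96, -0.06 and 0.07 with MyoD in shSix4 cells. Neither pair of groups overlapped, and in both lines the MyoD array of slide 1 was the highest. It rose by 1.27 ± 0.31 in shLuc cells (adjusted p = 0.0340, 0.0109 with the block), but 6 of the 12 fits that left out an array lost the call (any shLuc empty-vector array, shLuc MyoD array 1 or 3, or shSix4 empty-vector array 2), with adjusted p up to 0.130 without the MyoD array of slide 1. In shSix4 cells the value was 1.06 ± 0.31, past the threshold only with the block (adjusted p = 0.140 and 0.0491). Wnt2, a canonical ligand, read -1.21, -0.31 and -0.73 without and -3.07, -2.48 and -1.95 with MyoD in the shLuc line, without overlap. Its change of -1.75 ± 0.76 passed with the block and not without it (adjusted p = 0.0222 and 0.239; 0.0383 without the block when shSix4 MyoD array 1 was left out). Its change in shSix4 cells was -1.29 ± 0.76 (adjusted p = 0.729, 0.124 with the block), and there the MyoD array of slide 1, at -4.21, stood far below the other two, at -0.93 and -1.21. Wnt7b and Wnt11 were between -0.34 and 0.026 in both lines and passed in neither fit. The other ligands were too dim to test. Wnt5a was well above background on 6 of 12 arrays, Wnt6 and Wnt10a on 3, Wnt10b on 2, and Wnt2b, Wnt4 and Wnt16 on 0.

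**Figure D2:**
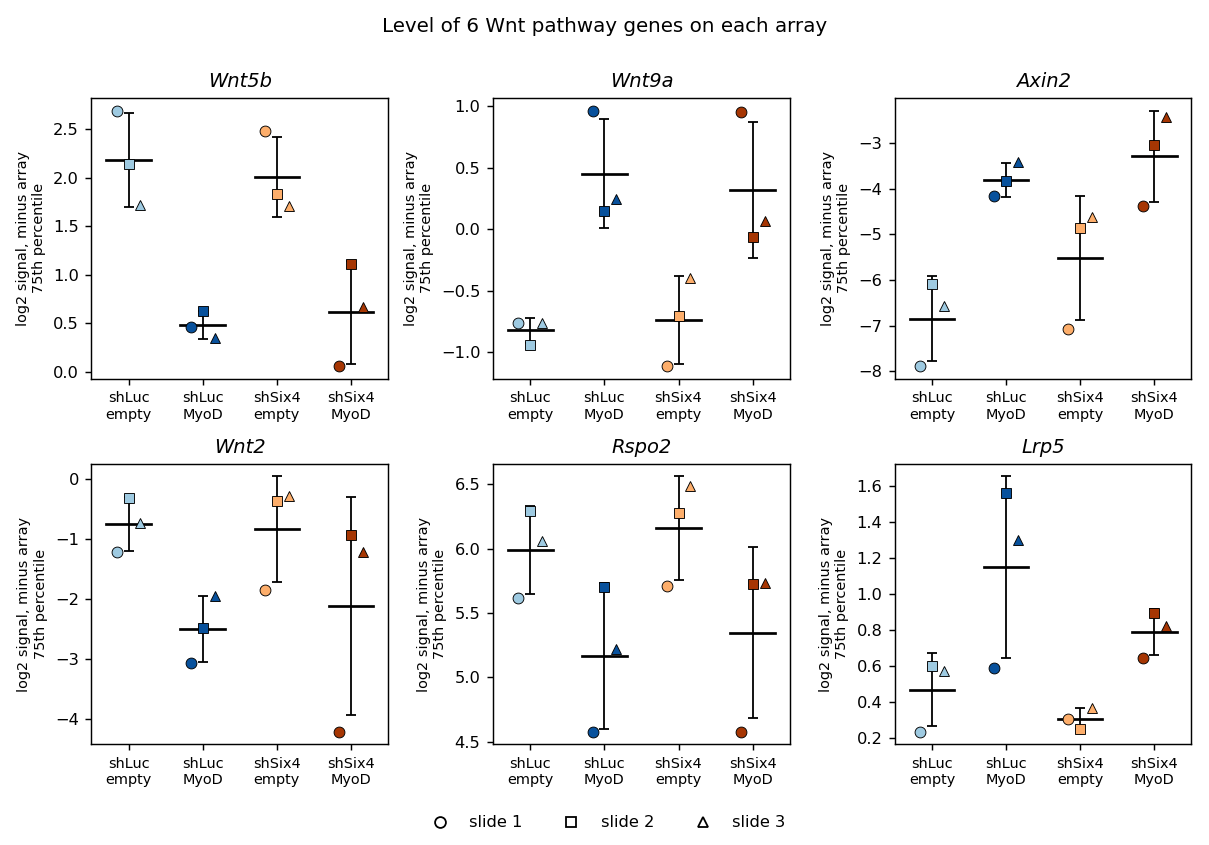
Level on each array (y axis, log2 signal minus the 75th percentile of the array; points are arrays, symbols are slides, lines are means and bars SD, n = 3) of Wnt5b, Wnt9a, Axin2, Wnt2, Rspo2 and Lrp5 in the 4 groups (x axis). Wnt5b lies lower and Wnt9a and Axin2 higher with MyoD in both lines without overlap, and Rspo2 is lower with MyoD on each slide while its groups overlap.

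The promoters of the 3 genes that passed without the block are shown because these genes were called in a comparison whose treatment is a DNA-binding factor. MyoD is known to bind E-boxes, of which CAGCTG and CACCTG are common forms. Tcf and Lef factors bind CTTTGAT or CTTTGAA, and Six4 and its relatives TCAGGTT. These 5 motifs were searched on both strands in 300 bases around each start, most of them upstream, in RefSeq's table (GRCm38.p6), and no 2 of them overlap in the promoters printed. Capitals mark the matches. Wnt5b, on chromosome 6 (minus strand), has 3 listed starts, and the middle one, at chr6:119467162-119467461, holds no match. The arrays do not show which start was used. Its start 1 spans chr6:119544298-119544597 and its start 3 chr6:119449337-119449636. Axin2 (plus strand) spans chr11:108920099-108920398 and Wnt9a (plus strand) chr11:59306680-59306979.
Wnt5b, start 1: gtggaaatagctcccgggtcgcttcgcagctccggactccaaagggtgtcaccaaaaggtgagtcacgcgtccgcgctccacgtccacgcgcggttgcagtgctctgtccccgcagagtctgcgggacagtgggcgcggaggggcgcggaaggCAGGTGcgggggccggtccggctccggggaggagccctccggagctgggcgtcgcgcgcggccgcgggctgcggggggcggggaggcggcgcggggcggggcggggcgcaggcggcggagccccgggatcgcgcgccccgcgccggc
Wnt5b, start 3: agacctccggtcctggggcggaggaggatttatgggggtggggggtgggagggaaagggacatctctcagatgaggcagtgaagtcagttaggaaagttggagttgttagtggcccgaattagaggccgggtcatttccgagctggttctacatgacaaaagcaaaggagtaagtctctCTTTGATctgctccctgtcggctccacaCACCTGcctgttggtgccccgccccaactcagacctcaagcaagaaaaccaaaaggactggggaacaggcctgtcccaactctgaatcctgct
Wnt9a: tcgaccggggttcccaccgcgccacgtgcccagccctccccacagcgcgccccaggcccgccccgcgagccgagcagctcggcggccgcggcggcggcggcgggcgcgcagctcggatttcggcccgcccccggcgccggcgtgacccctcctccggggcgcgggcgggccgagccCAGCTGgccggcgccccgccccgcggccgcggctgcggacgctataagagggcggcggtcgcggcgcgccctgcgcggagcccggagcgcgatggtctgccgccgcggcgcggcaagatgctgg
Axin2: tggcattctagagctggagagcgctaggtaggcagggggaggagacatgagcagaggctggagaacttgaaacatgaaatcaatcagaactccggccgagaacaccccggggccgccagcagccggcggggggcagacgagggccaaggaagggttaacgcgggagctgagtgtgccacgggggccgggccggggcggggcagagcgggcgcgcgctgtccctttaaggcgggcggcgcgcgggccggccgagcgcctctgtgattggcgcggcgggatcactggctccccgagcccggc

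Start 1 of Wnt5b held 1 CACCTG match on the opposite strand, start 3 held 1 CACCTG and 1 CTTTGAT, Wnt9a held 1 CAGCTG, a palindrome, and Axin2 held none of the 5. Such matches are common: of 32851 promoters of this length, 16.3% held CAGCTG, 20.2% CACCTG, 3.73% CTTTGAT, 5.14% CTTTGAA and 4.07% TCAGGTT. Of the 48 genes, 34 had a promoter in the table, with 43 starts in all; 16.3% of these starts held CAGCTG, 25.6% CACCTG, 4.65% CTTTGAT, 2.33% CTTTGAA and 0 TCAGGTT. A match is a description of the letters and shows no binding.

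Of the 15 receptors and co-receptors, 13 were tested, and 0 passed without the block in either line (in shLuc cells 4 and in shSix4 cells 1 had an unadjusted p under 0.05). Their median change was -0.24 in shLuc and -0.23 in shSix4 cells. With the block, 3 rose and 2 fell in shLuc cells and 0 passed in shSix4 cells. Fzd3, a Frizzled known for axon guidance and planar polarity, read -3.03, -3.22 and -3.49 without and -1.85, -2.01 and -2.48 with MyoD in shLuc cells. Every MyoD array was the higher. The change was 1.13 ± 0.32 for the probe used (adjusted p = 0.0694, 0.0192 with the block; 0.0143 and 0.0462 without the block when shSix4 MyoD array 1 or 2 was left out). A second probe gave 1.08, but it entered only through the MyoD groups. The rise of that probe is therefore in part set by the filter. In shSix4 cells the probe used changed by 0.42 ± 0.32 (adjusted p = 0.857, 0.406 with the block), with 1.38, -0.07 and -0.04 on slides 1 to 3, so slide 1 alone was clearly positive. Lrp5, the co-receptor of the canonical branch, read 0.24, 0.60 and 0.57 without and 0.59, 1.56 and 1.30 with MyoD in shLuc cells, and 0.30, 0.25 and 0.37 without and 0.64, 0.90 and 0.82 with it in shSix4 cells. The groups overlapped by 1 array in shLuc and did not overlap in shSix4 cells. Its changes were 0.68 ± 0.24 (adjusted p = 0.134, 0.0202 with the block) and 0.48 ± 0.24 (0.579 and 0.128), positive on 3 of 3 slides in both lines. Without shLuc MyoD array 1 the shLuc value was 0.96 and passed without the block too (adjusted p = 0.0198).

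Fzd10 was near background, well above it on 11 arrays, and read -4.83, -3.91 and -5.17 without and -3.85, -3.55 and -4.19 with MyoD in shLuc cells. The groups overlapped, and its change of 0.77 ± 0.32 passed with the block and not without it (adjusted p = 0.0441 and 0.211). Leaving out shLuc empty-vector array 2 gave 1.13 and an adjusted p of 0.0429 without the block. Fzd1, a receptor known in canonical signalling, read 4.38, 4.90 and 4.32 without and 3.65, 3.93 and 3.83 with MyoD in shLuc cells, so all 3 MyoD arrays were lower. The change of -0.73 ± 0.28 passed with the block only (adjusted p = 0.176 and 0.0275). For shSix4 the value was -0.54 ± 0.28 (0.624 and 0.142), which did not pass. Ryk, a receptor tyrosine kinase-like protein that binds Wnt ligands, read 3.48, 4.04 and 3.99 without and 3.11, 3.74 and 3.63 with MyoD in shLuc cells. The groups overlapped, but the difference within slides hardly varied, at -0.37, -0.30 and -0.36, and the small change of -0.34 ± 0.25 passed with the block (adjusted p = 0.0349, 0.515 without it). Fzd9, with the largest change of a receptor in shSix4 cells, read 0.52, 1.12 and 1.23 without and -1.27, 0.73 and 0.52 with MyoD there. Its change of -0.96 ± 0.52 did not pass (adjusted p = 0.654, 0.0508 with the block). Fzd2 read 4.35, 4.42 and 4.52 without and 4.29, 4.31 and 4.21 with MyoD in shLuc cells and 4.07, 4.25 and 4.21 and 3.69, 3.94 and 3.89 in shSix4 cells. Although neither pair overlapped, its changes were as small as -0.16 ± 0.15 and -0.34 ± 0.15 and did not pass (adjusted p = 0.626 and 0.482; 0.293 and 0.0950 with the block), and in shLuc cells a second probe was positive, at 0.11. The other 6 tested receptors, Fzd4 to Fzd8 and Ror2, had values of -0.49 to 0.39 in either line and passed in neither fit. The probe for Ror1 was well above background on 6 arrays and was not tested, and Lrp6 had no named probe.

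All 6 tested secreted antagonists were lower with MyoD in both lines, on each of the 3 slides, but 0 passed the test without the block (1 in each line had an unadjusted p under 0.05). Of the 34 genes, 21 in shLuc and 22 in shSix4 cells were lower on all 3 slides. For Frzb and Sfrp4, both shSix4 arrays of slide 1 read below the dimmest signal well above background. Their difference on that slide therefore gives no direction. The median change of the 6 antagonists was -1.03 in shLuc and -0.68 in shSix4 cells, beside -0.14 and -0.058 over all genes. With the block 3 fell in shLuc cells (Dkk3, Frzb and Sfrp1) and 2 in shSix4 cells (Dkk3 and Frzb). Dkk3, a divergent Dickkopf family member, read -3.03, -2.01 and -2.05 without and -4.04, -2.61 and -2.96 with MyoD in shLuc cells. The groups overlapped, with slide 1 low in both, while within slides the difference was -1.001, -0.60 and -0.91. It changed by -0.84 ± 0.44 (adjusted p = 0.347, 0.00171 with the block), and, under shSix4, where it read -3.36, -2.25 and -2.55 without and -3.90, -3.00 and -3.14 with MyoD, by -0.63 ± 0.44 (0.828 and 0.0155). Frzb (sFRP3), which binds Wnt ligands through a Frizzled-like domain, read -5.29, -4.31 and -4.20 without and -7.00, -6.00 and -5.40 with MyoD in shLuc cells. The MyoD arrays were all lower, and only 1 of the 3 was well above background. The shSix4 arrays read -6.05, -3.35 and -2.41 and -7.27, -4.97 and -5.53, with 2 of 3 arrays above background in each group and the slide 1 arrays lowest. Its changes were -1.53 ± 0.87 (adjusted p = 0.388, 0.0296 with the block) and -1.98 ± 0.87 (0.478 and 0.0219). With normexp background correction in place of the processed signal (without spots of extreme local background) the values were -0.57 and -0.79. Normexp here added an offset of 50 to each signal before the log, which draws the changes of dim probes towards 0. Arrays below background give only a bound, so the sizes for Frzb are uncertain. With each array's level raised to at least its dimmest signal well above background, the differences were -0.98 and -1.63, and this version was not tested. Without the shSix4 empty-vector array of slide 1 the shSix4 change passed without the block as well (adjusted p = 0.0438).

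Sfrp1, another secreted frizzled-related protein, read 0.41, 0.32 and 0.22 without MyoD in the shLuc line, a narrow group, and -1.06, -0.63 and -0.23 with MyoD. All MyoD arrays were lower. Its change of -0.95 ± 0.40 passed with the block only (adjusted p = 0.221 and 0.0338). A second probe gave -0.78, but it was kept only through shLuc cells with empty vector. The fall of that probe in shLuc cells is therefore in part set by the filter. In shSix4 cells the probe used read -0.65, 0.14 and 0.32 without and -1.62, -0.19 and -0.11 with MyoD, which overlap. The change there was -0.58 ± 0.40 (adjusted p = 0.819, 0.248 with the block). Dkk2, which binds Lrp co-receptors, read -1.07, -0.56 and 0.55 without and -3.34, -0.87 and -1.48 with MyoD in shLuc cells, a change of -1.54 ± 1.16 (adjusted p = 0.534, 0.0633 with the block). Sfrp2 read -0.33, 1.95 and 2.03 and -2.16, 1.62 and 0.88, a change of -1.10 ± 1.59 (0.780 and 0.118). In both genes the array of slide 1 was the lowest of each group. Leaving 1 array out turned some signs. Without the MyoD array of slide 1, Sfrp2 was 0.035 in shLuc and 0.87 and Dkk2 0.12 in shSix4 cells, none of them past the threshold. Sfrp2 in shSix4 cells was also slightly positive, at 0.0098 and 0.071, without the empty-vector arrays of slides 2 and 3. For Sfrp4, at -0.78 ± 0.98 and -0.52 ± 0.98, 2 of 19 alternatives were positive in shSix4 cells. Sfrp4 was well above background on 9 arrays. With levels raised as for Frzb, its differences were -0.61 in shLuc and -0.38 in shSix4 cells, and this version was not tested. Sfrp5 was well above background on 6 arrays and Dkk1 and Wif1 on 0, so these 3 were not tested.

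**Figure D3:**
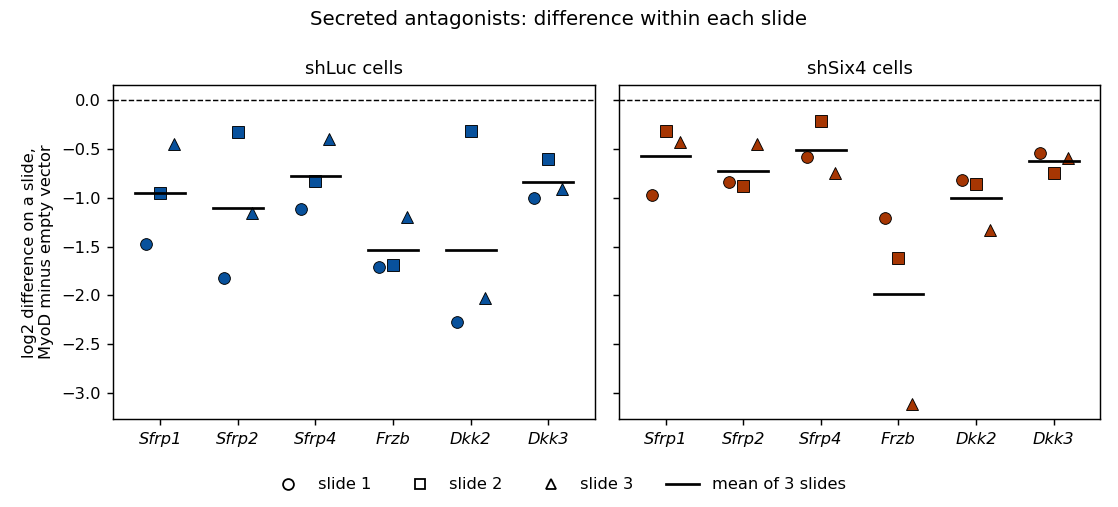
Log2 difference between the MyoD and the empty-vector array of the same slide (y axis; symbols are slides, black lines the mean of 3 slides) for the 6 tested secreted antagonists (x axis) in shLuc cells (left) and shSix4 cells (right). All 18 differences in each line are below 0, from -2.27 to -0.31 in shLuc and from -3.11 to -0.22 in shSix4 cells. Frzb and Sfrp4 came to be tested only through shLuc cells with empty vector, so their fall in shLuc cells is in part set by that filter. In shSix4 cells the slide 1 points of Frzb and Sfrp4 compare arrays that were both below background.

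Rspo2 and Rspo3, secreted proteins that strengthen Wnt signals through Lgr receptors, were lower with MyoD on 3 of 3 slides in both lines, and Rspo1 was well above background on 0 arrays. Their median change was -0.78 in shLuc and -0.89 in shSix4 cells. Rspo2 read 5.62, 6.29 and 6.06 without and 4.58, 5.70 and 5.22 with MyoD in shLuc cells, and 5.71, 6.28 and 6.49 without and 4.58, 5.73 and 5.73 with it in shSix4 cells. The groups overlapped in both lines, with slide 1 low throughout. Its changes were near equal, at -0.82 ± 0.38 and -0.81 ± 0.38, and passed only with the block (adjusted p = 0.00846 and 0.0184, against 0.272 and 0.543 without it). Rspo3 passed in neither fit, at -0.73 ± 0.91 and -0.98 ± 0.91 (adjusted p = 0.0888 and 0.0701 with the block, 0.739 and 0.931 without it). Its slide 1 arrays, from -3.68 to -1.39, lay below all others, which read -0.91 to 0.43, and without the MyoD array of slide 1 its change was 0.045 and 0.032.

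The 5 nuclear effectors were all tested, with 0 past the threshold without the block (Lef1 in shLuc cells had an unadjusted p under 0.05, and 0 did in shSix4 cells). Their median change was -0.24 in both lines, and with the block 2 fell in shLuc cells. Ctnnb1, the transducer of the canonical branch, read 4.22, 4.86 and 4.72 without and 3.99, 4.56 and 4.52 with MyoD in shLuc cells, and did not pass, at -0.24 ± 0.26 there and -0.24 ± 0.26 in shSix4 cells (adjusted p = 0.686 and 0.950, 0.154 and 0.244 with the block). Tcf7l1, known mainly as a repressor of Wnt targets, read 3.20, 4.79 and 4.40 and 2.13, 3.74 and 3.88 in shLuc cells. Tcf7l2 read 3.35, 3.94 and 4.08 and 2.27, 3.62 and 3.30. Both were lower with MyoD on every slide while their groups overlapped, with changes of -0.88 ± 0.73 (adjusted p = 0.580, 0.0169 with the block) and -0.73 ± 0.54 (0.523 and 0.0285), and all 3 probes for Tcf7l2 were negative. In shSix4 cells they were -0.56 ± 0.73 and -0.76 ± 0.54, and neither passed (adjusted p = 0.146 and 0.0508 with the block). Lef1, which like Tcf7 is commonly an activator with beta-catenin, read -2.97, -2.82 and -3.39 without and -1.50, -2.23 and -1.83 with MyoD in shLuc cells. All MyoD arrays were higher. The value of 1.21 ± 0.47 did not pass (adjusted p = 0.183, 0.0585 with the block; 0.0490 without the empty-vector shSix4 array of slide 2). In shSix4 cells it was 0.21 ± 0.47, with 1.09, -1.05 and 0.59 on the slides, so slide 2 went the other way. Tcf7 was 0.57 ± 0.47 and 0.29 ± 0.47 (adjusted p = 0.580 and 0.995).

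Of the 4 feedback genes and intracellular inhibitors, 3 were tested, with a median change of 1.35 in shLuc and 1.15 in shSix4 cells. Axin2, a scaffold of the beta-catenin destruction complex and a widely used readout of canonical signalling, was dim. It was well above background on 0 of 3 shLuc arrays with empty vector, on all 3 with MyoD, and on 2 and 3 of 3 in shSix4 cells. It came to be tested only through the MyoD groups, so its direction is in part set by that filter. It read -7.89, -6.09 and -6.57 without and -4.16, -3.82 and -3.41 with MyoD in shLuc cells, and -7.07, -4.86 and -4.61 without and -4.39, -3.03 and -2.43 with it in shSix4 cells. The MyoD arrays were the higher in both lines and on every slide, with no overlap. In shLuc cells the rise of the means, by a bound that carries no sampling error, was at least 4.45-fold. This bound sets the mean with MyoD against that of, per empty-vector array, the higher of the probe's own signal and the lowest signal of a probe well above background. The fitted value was 3.05 ± 0.70 (adjusted p = 0.0252, 0.000234 with the block). With normexp background correction and its offset, as for Frzb, the value was 0.62 (adjusted p = 0.297), below the bound. Of the 12 fits without 1 array, 5 lost the call (shLuc empty-vector array 1 or 3, or any shLuc MyoD array). In shSix4 cells the change was 2.23 ± 0.70 and passed only with the block (adjusted p = 0.184 and 0.00297), and with normexp it was 0.84. Nkd1, a feedback inhibitor that binds Dishevelled, read 0.56, 1.46 and 1.37 without and 2.00, 2.76 and 2.68 with MyoD in shLuc cells. The groups did not overlap, and the slides gave 1.43, 1.30 and 1.30. Its change of 1.35 ± 0.65 passed with the block (adjusted p = 0.0130, 0.293 without it), and that of 1.15 ± 0.65 in shSix4 cells did not (adjusted p = 0.0509 with the block, 0.691 without it). Dact1, which also binds Dishevelled, was -0.86 ± 0.95 and -0.49 ± 0.95 and well above background on 9 arrays (adjusted p = 0.698 and 0.997). Nkd2 was well above background on 3 arrays and was not tested.

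Between the hairpins, 0 of the 34 genes passed without the block in either comparison, at an unadjusted p under 0.05 for 2 in each (Wnt11 lower and Lef1 higher with empty vector, where 4.45% of all genes were, and Fzd2 and Fzd10 lower with MyoD, where 7.8% were). Few genes of any kind passed: 0.0569% with empty vector (0.00813% higher, 0.0488% lower) and 0.228% with MyoD (0.065% higher, 0.163% lower). The median difference, shSix4 minus shLuc, was -0.10 with empty vector and -0.11 with MyoD, beside -0.026 and 0.029 over all genes. With the block 0 passed with empty vector (0.642% of all genes, 0.146% higher and 0.496% lower) and 2 with MyoD (4.33%, 1.75% higher and 2.59% lower). These 2 were Nkd1 and Ryk. With MyoD, Nkd1 was at 2.00, 2.76 and 2.68 under shLuc and at -0.11, 1.72 and 1.69 under shSix4, a difference of -1.38 ± 0.65 (adjusted p = 0.0388 with the block, 0.681 without it). All shSix4 arrays were the lower, slide 1 by far. With empty vector Nkd1 read -1.59, 0.66 and 0.79 in shSix4 cells and differed by -1.18 ± 0.65 (0.127 with the block, 0.999 without it), again lower on 3 of 3 slides. Ryk, again with MyoD, was at 3.11, 3.74 and 3.63 under shLuc and at 3.61, 4.05 and 4.09 under shSix4. It differed by 0.42 ± 0.25 (adjusted p = 0.0494 with the block, 0.854 without it), higher on each slide. With empty vector the difference was 0.31 ± 0.25 (adjusted p = 0.203 with the block). Fzd2 did not overlap between the hairpins with either vector, at -0.43 ± 0.15 with MyoD and -0.25 ± 0.15 without, but did not pass (adjusted p = 0.0581 and 0.311 with the block). Its second probe hardly differed with empty vector, with means of -0.60 in shLuc and -0.65 in shSix4 cells. With MyoD that probe averaged -0.49 and -0.89. Groups without overlap were seen for 4 lower genes with MyoD (6.05% of all genes) and 1 with empty vector (5.03%), and for 0 higher genes (5.98% and 3.3% of all genes). The muscle marker list also differed between the hairpins with MyoD: 1 of 12 was lower in shSix4 cells without the block (Myh3) and 6 with it. With the block, 1 fibroblast and 1 osteoblast marker were higher and 1 fibroblast and 1 epithelial marker lower in that comparison. Myod1 itself was -1.45 ± 0.81 in shSix4 against shLuc cells with MyoD (adjusted p = 0.837), and its part in the differences was not tested.

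**Figure D4:**
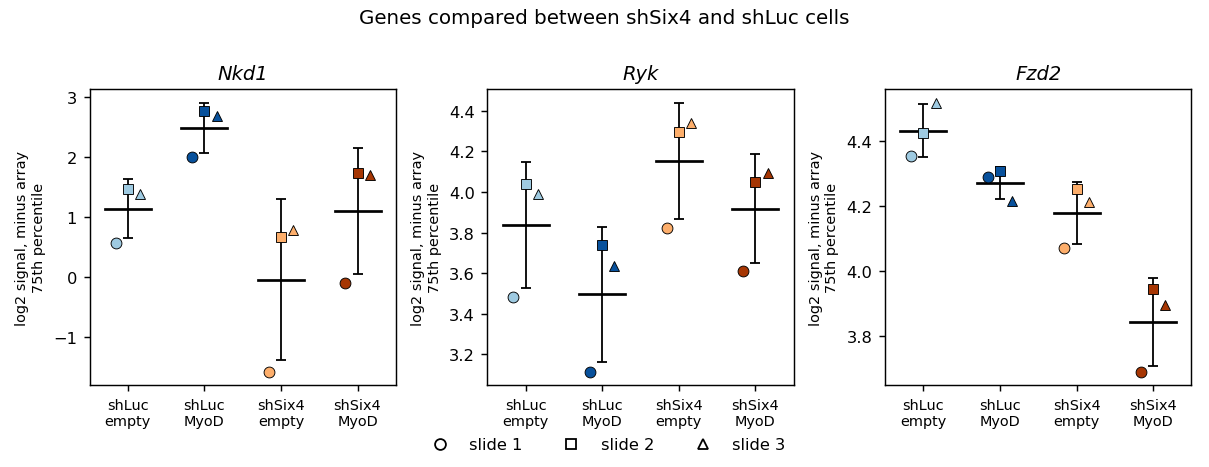
Level on each array (y axis, log2 signal minus the 75th percentile of the array; points are arrays, symbols are slides, lines are means and bars SD, n = 3) of Nkd1, Ryk and Fzd2 in the 4 groups (x axis). Nkd1 and Fzd2 lie lower and Ryk higher under shSix4 than under shLuc on each slide, with either vector.

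The MyoD response did not differ between the lines past the threshold for any of the 34 genes, nor for any of the 12300 (0 with or without the block; at an unadjusted p under 0.05, 0 of the 34 and 2.02% of all genes without it). In the fit without the block the intervals for this difference, shSix4 minus shLuc response, were wide. The 95% interval was -0.70 to 1.32 for Wnt5b, -1.18 to 0.76 for Wnt9a, -3.01 to 1.37 for Axin2 and -2.23 to 1.84 for Nkd1. Lef1, with the largest difference in size of the 34, had an interval of -2.47 to 0.47. With the block the SE of this difference was smaller for each of them. It was 0.47 with and 0.99 without the block for Axin2, and 0.43 and 0.92 for Nkd1. For Wnt5b it was 0.43 and 0.46, for Wnt9a 0.40 and 0.44, and for Lef1 0.59 and 0.67. A change called in shLuc cells and not in shSix4 cells, as for Axin2 and Wnt9a without the block, is therefore not shown to be smaller there.

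Of 93 other genes of the pathway, 68 were tested. With MyoD in shLuc cells 2 rose (2.94%, where 4.72% of all genes did) and 1 fell (1.47%, where 1.56% did). With the block 8 rose (11.8%, where 9.89% of all genes did) and 12 fell (17.6%, where 15.7% did). In the shSix4 line 2 rose (2.94%, where 2.79% of all genes did) and 0 fell (0.106% of all genes did). With the block 5 rose there (7.35%, where 5.69% of all genes did) and 2 fell (2.94%, where 2.6% did). The median change of the 68 was -0.23 in shLuc and -0.083 in shSix4 cells, beside -0.14 and -0.058 over all genes. Between the hairpins 0 passed without the block with either vector. With the block 1 was lower in shSix4 cells with empty vector (1.47%, where 0.496% of all genes were) and 0 higher. With MyoD 2 were higher (2.94%, where 1.75% of all genes were) and 2 lower (2.94%, where 2.59% were). The 2 higher genes were among the 8 tested known targets named as a class below. Kremen2, a receptor for Dickkopf proteins, rose above background only with MyoD, on 6 of 6 such arrays and 0 of 6 with empty vector. It came to be tested only through the MyoD groups, so its direction is in part set by that filter. It read -8.03, -7.64 and -8.52 without and -3.28, -4.02 and -2.95 with MyoD in shLuc cells, and -7.03, -7.78 and -7.90 and -4.60, -4.96 and -4.13 in shSix4 cells, with no overlap. By the bound used for Axin2 the rise was at least 5.81-fold in shLuc and at least 1.77-fold in shSix4 cells. The fitted log2 changes were 4.65 (adjusted p = 8.54e-06) and 3.01 (0.000441). With normexp and its offset they were 0.90 and 0.79, both below the bounds, with adjusted p of 0.0646 and 0.220. Scrib, a polarity protein tied to the planar branch, read 3.91, 3.86 and 3.92 without and 5.43, 5.26 and 5.49 with MyoD in shLuc cells. It rose by 1.499 ± 0.16 (adjusted p = 0.000110) there and by 0.70 ± 0.16 in shSix4 cells (adjusted p = 0.0380, range over its alternatives 0.00979 to 0.190; kept only without shLuc empty-vector array 2 or shSix4 empty-vector array 1 among the 12 fits without 1 array). Ctnnbip1, which blocks the binding of beta-catenin to Tcf factors, read 3.32, 3.35 and 3.26 without and 2.65, 2.41 and 2.87 with MyoD in shLuc cells, all MyoD arrays lower. Its change of -0.67 ± 0.17 passed (adjusted p = 0.0373, range over its alternatives 0.00703 to 0.131; it was kept only without shLuc MyoD array 3 or the slide 1 array of either shSix4 group, and lost in the other 9 of 12 fits without 1 array), and that of -0.37 ± 0.17 in shSix4 cells did not (0.486). Of 8 tested genes known as transcriptional targets of the pathway, 0 passed without the block in either line. With the block 3 rose (Cd44, Ccn4 and Fosl1) and 2 fell (Bambi and Twist1) in shLuc cells, where 9.89% of all genes rose and 15.7% fell. The first 3 also rose in shSix4 cells, where 5.69% of all genes rose.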

How the data were processed

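RNA of 12 samples was hybridised to single-colour Agilent arrays. The deposited scanner files give each spot's processed intensity, background-corrected by Agilent Feature Extraction (the submitters' processing notes name version 10.5.1.1); the deposited value table of log2 values was used only as an alternative, since its scale, centring and probe selection are not stated. Control spots and outlier-marked spots were left out, spots of a probe were averaged, and log2 intensity minus the array's 75th percentile was taken. Of 41174 probes, 24000 stood well above background throughout 1 group or more and were kept, with or without a gene name. Among the kept probes with a name, 1 stood for each of 12300 genes, and its name came from its RefSeq accession. A gene could enter through 1 group alone, as Frzb, Sfrp4 and Dact1 did through shLuc cells with empty vector. Changes were tested with limma 3.58.1 (R 4.3.3) on all genes with 4 group means, with Benjamini-Hochberg adjustment at 0.05; the steps were tested on simulated data.

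Replicate numbers are slides. Deviations from the group means correlated at 0.278 to 0.819 in the 18 pairs of arrays that shared a slide and at -0.734 to 0.498 in the 36 others (12144 genes), and 12 of 12 arrays correlated best with one of their own slide, so the numbers pair the samples and a fit with the slide as a block is given beside the results. Other alternatives were normexp background correction with an offset of 50, quantile normalization, other filters and probe rules, the deposited table, and leaving out each array. Between 22318 and 27448 probes an array were well above background, and the number of arrays limits the precision. The members and lists were chosen with earlier results of these data known. The members described singly were those past the threshold in any comparison, with or without the block, and in each class the member with the highest mean level and that with the largest change in each MyoD comparison. Other genes of the pathway were named where they passed without the block. The 5 known targets that passed only with the block in the MyoD comparisons were named after their values were seen.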

Additional observations from a re-analysis of the deposited data

How the results depend on the processing

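The slide as a block, which pairs the samples, moved the number of the 34 genes past the threshold from 3 to 16 for MyoD in shLuc cells, from 1 to 6 in shSix4 cells and from 0 to 2 for shSix4 against shLuc with MyoD; it changed no other count of these genes. Over all genes the block moved the counts from 772 to 3150, from 356 to 1020 and from 28 to 533, and for the hairpins with empty vector from 7 to 79. Leaving out 1 array gave 1 to 5 genes in shLuc cells (1 without shLuc empty-vector array 1 or 3 or shLuc MyoD array 3, 5 without shSix4 MyoD array 1) and 0 to 1 in shSix4 cells. In shSix4 cells 0 of these genes passed with no filter on dim probes, with only probes well above background on all arrays, or with the mean of a gene's probes; the cause was not tested. The authors' deposited table, with 11 of these genes, called 0 in both lines, over fewer genes tested (2638). Normexp correction as planned called 0 in both lines: 19, 9 and 5 spots with a local background over 100 raised the median log2 signal of 3 arrays to 9.997, 9.547 and 8.022. Without those spots, a setting chosen after seeing the data, the medians were 6.47 to 7.02 and the counts 2 and 1. Requiring all arrays above background moved the counts over all genes to 457 and 154. No change of a gene described singly reversed past the threshold under these alternatives. Probes not well above background have only a bound on their change, as for Axin2 and Kremen2.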
